A study of Mus musculus with 4 samples.

Results

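Crypt epithelial chemokines are 9 mouse genes whose products attract or position immune cells at the intestinal lining: Ccl6, Ccl9, Ccl20, Ccl25, Ccl28, Cx3cl1, Cxcl12, Cxcl16 and the chemokine-like factor Cklf. They were taken as every probe set that the array annotation assigns to one of these symbols, which gave 26 probe sets for 9 of the 18193 genes annotated on the array. For each gene the probe set with the highest mean signal over all arrays is described first. Signals were measured in small-intestinal crypt cells cut out as Paneth cells by laser from frozen sections of male NMRI mice aged 8 weeks. One pool came from 3 mice kept germ-free, and the other from 3 mice that had been germ-free and then carried, for 10 days, microbes taken from a conventionally raised mouse. Both groups therefore began life germ-free, and no group was colonized from birth. From each pool 2 aliquots of 10 ng of RNA were amplified, and each product was hybridized to 1 Affymetrix Mouse430_2 array, giving 4 arrays. The 2 arrays of a group are duplicates of 1 pool, so each p-value concerns amplification and array error and not the variation between mice, and the small number of arrays limits the precision.

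Chemokines are small secreted or membrane-tethered proteins that bind G protein-coupled receptors on leukocytes and set up gradients along which those cells migrate. In the small intestine, epithelial Ccl25 and Ccl28 are known for recruiting lymphocytes and IgA-producing plasma cells through the receptors Ccr9 and Ccr10, Ccl20 for attracting Ccr6-bearing cells to lymphoid follicles, and Cx3cl1 and Cxcl16 for holding receptor-bearing cells close to the surface that displays them. Cklf is not a classical chemokine: it belongs to the CMTM family of membrane-spanning proteins, some of whose products have chemotactic activity.

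The cut cells carried Paneth cell transcripts. Of 13 Paneth markers listed, 7 had a probe set naming them alone, and 6 of these exceeded the median of all probe sets on all 4 arrays, among them the lysozyme gene Lyz1, the ribonuclease gene Ang4 and the lectin gene Itln1. The other was Defa3, which read 27.8 and 88.2 against 22.4 and 171 and exceeded the median on 2 arrays. The other alpha-defensins listed had no probe set of their own. The stricter limit described below was passed on all 4 arrays by 4 of the 7. The summed signal of the 7 ran from 46656 to 88562 on the germ-free arrays and from 173357 to 337757 on the conventionalized arrays. This sum is led by Lyz1, which read 24112 and 51494 against 80185 and 249594. Lyz1 differed by a log2 of 2.00 with a limma standard error of 1.16 and was not called (limma adjusted p = 0.999). Goblet cell markers (7 of 8 above the median on all 4 arrays) and enterocyte markers (11 of 13) were also above background. In such material, fewer cells of a type and less RNA per cell cannot be told apart. The ratio of the 3′ to the 5′ control probe set is a sign of shortened transcripts. For beta-actin it was 39.2 and 44.9 in the germ-free pool and 63.7 and 116 in the conventionalized pool. For Gapdh it was 6.3 and 10.3 against 9.4 and 6.4, and the groups overlapped. The germ-free pair was processed on fluidics station 1 and the conventionalized pair on station 2, which leaves station confounded with group: the 2 cannot be told apart.

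Signal above background was found for 8 of the 9 genes. Background was taken as the median signal of all probe sets on the same array, which lay between 86.4 and 136. Of the 26 chemokine probe sets, 11 exceeded it on all 4 arrays (42.3%, beside 30.6% of all 45037 probe sets that are not controls), 9 on some arrays and 6 on none. The 11 included the first probe set of every gene other than Ccl20. A stricter limit, the 95th percentile of 80 probe sets for olfactory and vomeronasal receptors on the same array, was passed on all 4 arrays by 7 chemokine probe sets (26.9%, beside 15.3% of all). These belonged to Ccl6, Ccl9, Ccl25, Ccl28, Cxcl12 and Cklf. The first probe set of Cxcl16 passed it on 2 arrays and that of Cx3cl1 on 1.

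**Figure D1:**
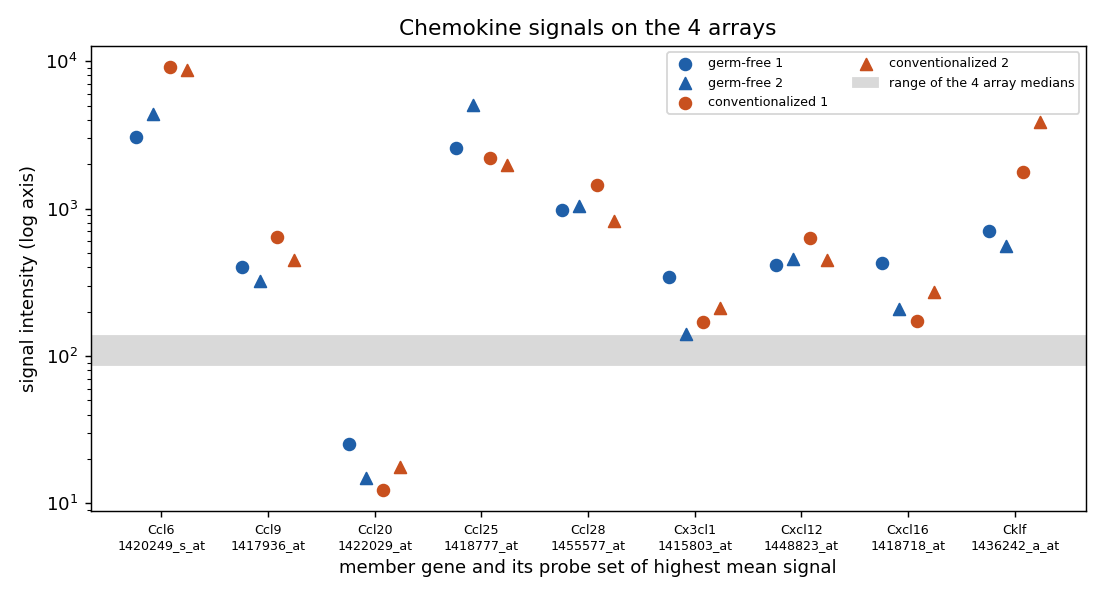
Signal intensity (log axis) of the first probe set of each chemokine gene on each array. Blue marks germ-free and orange conventionalized arrays, circles replicate 1 and triangles replicate 2, and the grey band spans the 4 array medians. Ccl20 lies under the band on all 4 arrays, between 12.3 and 25.3, and for Cklf both orange symbols lie above both blue ones. Heights are to be read within a gene, since different probe sets bind with different strength.

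The comparison of the conventionalized with the germ-free pool asks which of these genes differed between the pools. With 1 pool per group, a response to gut microbes cannot be told apart from other differences between pools or stations. One gene differed by the test used. Cklf was higher in the conventionalized pool, with a log2 difference of 2.00, while the other 14 tested chemokine probe sets did not pass. The test was limma on log2(signal + 32) over all 22518 probe sets whose mean signal exceeded 113.7, with Benjamini-Hochberg adjustment over all of them and a threshold of 0.05. This filter kept 15 of the 26 chemokine probe sets and 8 first probe sets, and left out that of Ccl20. In all, 75 probe sets were called, 0.33% of those tested: 27 higher (0.12%) and 48 lower (0.213%), or 3 and 17 with median centring. The chemokines held 1 of 15 (6.67%), higher. They were chosen with earlier results of these data known, so these shares are not a test of the list. In 6 of the 15 (40%) the groups did not overlap, 5 higher and 1 lower in the conventionalized pool, beside 31.1% of all tested (15.8% higher and 15.3% lower). At first probe sets the median log2 difference was 0.19, with 5 above 0 and 3 below, beside a median of 0.00 over 12122 genes, and without conventionalized replicate 1 it was -0.01. With 2 arrays against 2, an exact two-sided permutation test of a single probe set cannot go below p = 0.33.

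**Figure D2:**
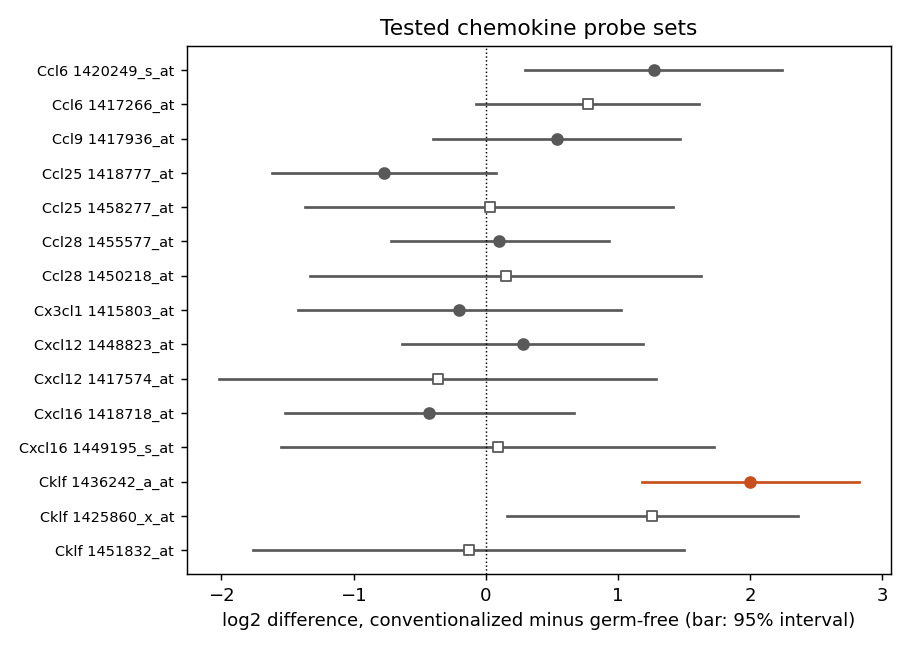
Log2 difference (conventionalized minus germ-free, on log2(signal + 32)) of the 15 tested chemokine probe sets with 95% intervals from limma. Filled circles are first and open squares other probe sets of a gene, and orange marks the 1 called. The interval of Cklf 1436242_a_at runs from 1.18 to 2.82. Those of Ccl6 1420249_s_at and Cklf 1425860_x_at also exclude 0, from 0.30 to 2.24 and from 0.16 to 2.36, though neither passed after adjustment.

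Ccl6 and Ccl9 encode CC chemokines found in rodents that act through Ccr1, a receptor of monocytes and other myeloid cells, and they are neighbouring genes on chromosome 11. The first probe set of Ccl6 (gene identifier 20305, 1420249_s_at) read 3079 and 4357 in the germ-free pool and 9113 and 8648 in the conventionalized pool. Both conventionalized arrays were above both germ-free arrays, and each of the 4 cross-group ratios lay between 1.98 and 2.96. The log2 difference was 1.27 ± 0.49 (SE, 2 arrays per group), or 2.41-fold, and was not called (limma adjusted p = 0.576, from 0.102 to 1 over 13 alternatives). With any 1 array left out it stayed between 1.02 and 1.52. The ± values here and below are limma standard errors. They were borrowed from probe sets of similar brightness and are not the spread of the probe set's own duplicates. The second Ccl6 probe set, 1417266_at, read 1512 and 2274 against 3180 and 3194, again without overlap, a log2 difference of 0.77 ± 0.43 (limma adjusted p = 0.999). Duplicates of the conventionalized pool differed by 1.05-fold and 1.00-fold at these probe sets, and those of the germ-free pool by 1.42-fold and 1.5-fold.

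Ccl9 (gene identifier 20308, 1417936_at) read 398 and 323 in the germ-free pool and 642 and 444 in the conventionalized pool. The groups did not overlap, but the lowest cross-group ratio was 1.12, and the log2 difference of 0.54 ± 0.48 was close to its standard error (limma adjusted p = 0.999). Its other probe set, 1448898_at, read 155 and 76.0 against 124 and 26.8, which overlap, and lay under the signal filter. The suffix _s_at of the first Ccl6 probe set marks probes that can bind more than 1 related transcript, so a contribution of relatives of Ccl6 to that signal cannot be told apart.

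Because both Ccl6 and Ccl9 had first probe sets with higher signal on both conventionalized arrays, their start regions are shown. Each window runs from 250 bases before to 50 bases after the annotated gene start (RefSeq, GRCm38.p6, minus strand, chr11:83593038-83593337 for Ccl6 and chr11:83578587-83578886 for Ccl9). Capitals mark runs of at least 10 bases shared by both windows.
Ccl6: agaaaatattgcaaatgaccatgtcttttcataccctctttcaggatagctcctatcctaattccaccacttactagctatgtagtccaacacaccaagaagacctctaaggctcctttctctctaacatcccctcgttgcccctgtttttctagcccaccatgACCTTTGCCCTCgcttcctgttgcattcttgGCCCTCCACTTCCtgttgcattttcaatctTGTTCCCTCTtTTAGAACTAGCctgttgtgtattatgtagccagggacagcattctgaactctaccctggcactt
Ccl9: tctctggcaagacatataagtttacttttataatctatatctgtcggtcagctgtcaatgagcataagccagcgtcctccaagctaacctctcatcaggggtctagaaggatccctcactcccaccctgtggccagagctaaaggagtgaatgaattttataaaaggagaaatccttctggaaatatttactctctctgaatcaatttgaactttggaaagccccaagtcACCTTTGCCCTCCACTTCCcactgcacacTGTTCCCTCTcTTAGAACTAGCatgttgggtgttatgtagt
The windows share 4 such runs, the longest of 13 bases. In the Ccl6 window all lie before the start, and in the Ccl9 window they lie on both sides of it. The runs that begin at bases 231 and 237 of the Ccl9 window overlap and form a single stretch of capitals. In the Ccl6 window they begin at bases 165 and 196 and stand apart. In a local alignment, bases 192 to 265 of the Ccl6 window and 233 to 299 of the Ccl9 window were identical in 59 of 74 columns (79.7%). Upstream of these runs the windows differ: TATAAA, the core of a TATA box, occurs in the Ccl9 window, as in 13.6% of 32851 promoter windows of this length, counted on both strands, and not in that of Ccl6. An NF-kB motif was likewise found in the Ccl9 window and not in the Ccl6 window, and 4.51% of all windows hold one. Such matches are descriptions of the letters and not binding sites.

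Beside these 2 genes, the 6 Paneth cell markers tested had a median log2 difference of 1.55 (0.65 with quantile normalization), and in 5 of them both conventionalized arrays lay above both germ-free arrays. None was called at its first probe set, and 1 further probe set, of Ang4, was. Myeloid cells are another known source of Ccl6 and Ccl9. Of 17 macrophage, dendritic cell and granulocyte markers on the array, 5 exceeded the array median on all 4 arrays, and S100a8, S100a9 and Mcpt1 on none. The summed signal of this list was 9746 and 10369 in the germ-free and 20855 and 18708 in the conventionalized pool. Without Lyz2, whose transcript resembles Paneth cell Lyz1, it was 4119 and 3406 against 4925 and 3794, and the groups overlapped. The part of either cell type in the Ccl6 values was not tested.

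Ccl25 (gene identifier 20300) encodes the ligand of the gut-homing receptor Ccr9 and is a characteristic product of small-intestinal epithelium. Of the 9 genes, it was the 1 with a tested probe set that lay lower on both conventionalized arrays. Its first probe set, 1418777_at, read 2558 and 5003 in the germ-free pool and 2212 and 1972 in the conventionalized pool. The log2 difference was -0.77 ± 0.43 (95% interval -1.62 to 0.08; limma adjusted p = 0.999). Most of the gap came from germ-free replicate 2: without it the difference was -0.29, and without germ-free replicate 1 it was -1.25. The second probe set, 1458277_at, read 165 and 166 against 102 and 270 and differed by 0.03 ± 0.71, or by -0.08 with median centring and -0.04 with quantile normalization. The annotation gives Ccl25 a pair of start regions, and the downstream one is shown because, unlike the upstream one, it holds TATAAA, marked in capitals, from 16 bases before the annotated start (RefSeq, GRCm38.p6, plus strand, chr8:4349338-4349637).
Ccl25: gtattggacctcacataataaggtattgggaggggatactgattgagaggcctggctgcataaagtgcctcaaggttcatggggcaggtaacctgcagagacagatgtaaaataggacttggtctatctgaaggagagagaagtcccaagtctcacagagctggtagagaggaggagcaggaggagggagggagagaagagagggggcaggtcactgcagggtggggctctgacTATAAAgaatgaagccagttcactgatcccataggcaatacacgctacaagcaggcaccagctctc
The upstream window holds 52 CpG dinucleotides in 300 bases and this one 1, beside a median of 7 over all windows. TTTATG, the core of the site of the intestinal CDX factors, also occurs once in the downstream window (reverse strand), as in 11.9% of all windows. The arrays do not say which start was used.

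Enterocyte markers, beside Ccl25, had a median log2 difference of -0.52 over 13 tested, with 10 below 0. Among the brightest of them, Fabp2, a fatty acid binding protein, differed by 1.47, Apoa1 by -0.52 and Apoa4 by 0.59, and none of these 3 passed. Apoc3, an apolipoprotein, was the 1 marker called and fell by 2.16 on the log2 scale (limma adjusted p = 0.00333). It kept its direction in all 13 alternatives and its call in 6, and without conventionalized replicate 1 it was lost (-1.40, limma adjusted p = 0.548), as without germ-free replicate 2 (-1.82, limma adjusted p = 0.0838). The summed signal of the list, which is led by Fabp2, was 100099 and 183712 against 115116 and 264774. The part of enterocyte RNA in the Ccl25 values was not tested.

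Ccl28 (gene identifier 56838), a mucosal chemokine that draws Ccr10-bearing IgA plasma cells and is itself antibacterial, did not differ beyond its error. The first probe set, 1455577_at, read 978 and 1046 in the germ-free pool, and 1450 and 817 in the conventionalized pool, whose values lie on either side of the germ-free ones. Its log2 difference was 0.10 ± 0.42, with a 95% interval from -0.72 to 0.93. Of the other 2 probe sets, 1450218_at read 171 and 123 against 107 and 245 (log2 difference 0.15 ± 0.76), and 1450217_at, from 15.1 to 73.6, stayed under the array median on all 4 arrays. Beside it, IgA transcripts rose: Igha was called, with a log2 difference of 2.44 ± 0.44 (limma adjusted p = 5.52e-05; called in 10 of 13 alternatives and with any 1 array left out), and the summed signal of the 8 B and plasma cell markers on the array was 2772 and 2791 against 8371 and 10123. Without Igha it was 1777 and 1146 against 2097 and 2135. Of the 6 markers tested, 5 differed by more than 0 and 1 by less. Jchain differed by 0.93 ± 0.44 and the plasma cell gene Mzb1 by 0.13 ± 0.59. Ms4a1 was lower on both conventionalized arrays (-1.58 ± 0.94), and Igha was the 1 gene of the list called. Of the 8 markers on the array, 4 exceeded the median on all 4 arrays, and Tnfrsf17, a plasma cell receptor, on none.

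Ccl20 (gene identifier 20297), the ligand of Ccr6 that epithelium over lymphoid follicles makes in response to bacterial products, was not above background on any array. Its single probe set, 1422029_at, read 25.3 and 14.9 in the germ-free pool and 12.3 and 17.6 in the conventionalized pool. The groups overlap at values under the pseudocount of 32, so no fold is given. Markers of follicle-associated epithelium were measured beside it: 4 of 7 exceeded the array median on all 4 arrays, among them Marcksl1, Ctsh and Spib, and their summed signal was 2730 and 2634 against 2169 and 2408. NF-kB response genes, which share an inducing pathway with Ccl20, had a median log2 difference of 0.20 over 7 tested, and of -0.30 without conventionalized replicate 2. Among them Nfkbia, the inhibitor that NF-kB itself induces, read 9271 and 12956 against 13828 and 14243 (log2 difference 0.36 ± 0.61), and none of the 7 was called.

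Cx3cl1 and Cxcl16 encode the chemokines that are made as membrane proteins on a mucin-like stalk and can be cut free by the proteases Adam10 and Adam17. Cx3cl1 (gene identifier 20312), the ligand of Cx3cr1 on intestinal macrophages, read 344 and 141 in the germ-free pool and 170 and 212 in the conventionalized pool at its first probe set, 1415803_at. The conventionalized values lie between the germ-free ones, and the log2 difference was -0.20 ± 0.62 (95% interval -1.42 to 1.02). Without germ-free replicate 1 it was 0.36.

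The other 3 Cx3cl1 probe sets lay under the signal filter and disagreed with one another. 1415804_at read 45.9 and 81.1 against 68.2 and 235, 1421610_at read 165 and 59.3 against 31.3 and 35.9, and 1441884_x_at read 12.1 and 3.70 against 98.2 and 27.3. The groups overlap at 1415804_at, which was above the array median on conventionalized replicate 2 alone, and 1421610_at was above it on germ-free replicate 1 alone. 1441884_x_at was under the array median on all 4 arrays. No fold is given for these 3.

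Cxcl16 (gene identifier 66102), whose receptor Cxcr6 marks resident T and innate lymphoid cells, read 430 and 209 in the germ-free pool and 172 and 271 in the conventionalized pool at 1418718_at. The groups overlap, and the log2 difference was -0.43 ± 0.56 (95% interval -1.52 to 0.67), or 0.04 without germ-free replicate 1. A second probe set, 1449195_s_at, read 122 and 141 against 100 and 196 and differed by 0.09 ± 0.84, or by -0.01 with either other scaling. Of the genes that cleave or display chemokines, none of 7 tested was called (limma; 0 had an unadjusted p under 0.05). Adam10 differed by -0.49 ± 0.42 and Adam17 by 0.74 ± 0.74. The heparan sulfate carriers Sdc1 and Sdc4, which can hold chemokines at the cell surface, differed by -0.18 ± 0.42 and -0.10 ± 0.44.

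Cxcl12 (gene identifier 20315), the Cxcr4 ligand that retains lymphocytes and supports vessels and is made largely by stromal cells, read 414 and 453 in the germ-free pool and 629 and 449 in the conventionalized pool at 1448823_at. The groups overlap by a narrow margin, and the log2 difference was 0.28 ± 0.47 (95% interval -0.63 to 1.19). A second probe set, 1417574_at, read 217 and 112 against 165 and 78.2 (-0.36 ± 0.84). The third, 1439084_at, from 28.0 to 71.7, was under the array median throughout. Dpp4, a brush-border peptidase that inactivates Cxcl12, differed by -0.29 ± 0.42. Fibroblast markers were present beside it, with 8 of 9 above the median on all 4 arrays, among them Vim, Col3a1 and Col1a2. Their summed signal was 5639 and 6030 against 5216 and 5093, and their median log2 difference was -0.02 (from -0.33 to 0.05 with 1 array left out). Of 7 endothelial and blood markers on the array, none exceeded the median on all 4 arrays, 4 did on 2 or 3 (Cdh5, Kdr, Tek and Vwf), and 3 on none (Pecam1, Cd34 and Hba-a1). Their summed signal was 822 and 609 against 372 and 646. The part of stromal RNA in the Cxcl12 signal was not tested.

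Cklf (gene identifier 75458) gave the 1 call among the chemokines. At its first probe set, 1436242_a_at, the germ-free arrays read 709 and 559 and the conventionalized arrays 1763 and 3864. All 4 cross-group ratios lay between 2.49 and 6.91, although the conventionalized duplicates themselves differed by 2.19-fold. Cklf rose by a log2 of 2.00 ± 0.42 (limma SE, 2 arrays in each group), or 4.0-fold (limma adjusted p = 0.00131). Over 13 alternatives it was called in 7, and its adjusted p ran from 0.000366 to 1. Without conventionalized replicate 2 the log2 difference was 1.44, or 2.71-fold, and the call was lost (limma adjusted p = 0.439), as it was without germ-free replicate 2 (1.84, limma adjusted p = 0.110). It was also lost with quantile normalization (limma adjusted p = 0.102) and with median centring (limma adjusted p = 0.677). The standard error was borrowed from probe sets of similar brightness, since limma found no spread beyond the trend. Without the trend the standard error of Cklf was 0.58 rather than 0.42, and no probe set of the whole table was called. The array with the highest Cklf signal, conventionalized replicate 2, also had the highest 3′ to 5′ beta-actin ratio. Its Gapdh ratio of 6.4 was lower than that of conventionalized replicate 1, at 9.4. The part of transcript shortening in the result was not tested.

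The array holds 7 probe sets for Cklf, and they did not move as one. The second, 1425860_x_at, read 233 and 96.9 against 351 and 480, again without overlap, and differed by 1.26 ± 0.56 without passing (limma adjusted p = 0.820). This probe set exceeded the stricter limit, the 95th percentile of the sensory receptor probe sets, on 2 arrays. The third, 1451832_at, read 292 and 65.0 against 190 and 85.7 and differed by -0.13 ± 0.83, with germ-free duplicates 4.49-fold apart. The remaining 4 lay under the signal filter: 1425769_x_at ranged from 43.6 to 177, 1451374_x_at from 30.2 to 106, 1424495_a_at from 24.4 to 97.5 and 1455615_at from 11.1 to 106. Of these, 1451374_x_at was lower on both conventionalized arrays (50.3 and 30.2 against 106 and 68.4), under background throughout. The call rests on 1 probe set of 7.

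**Figure D3:**
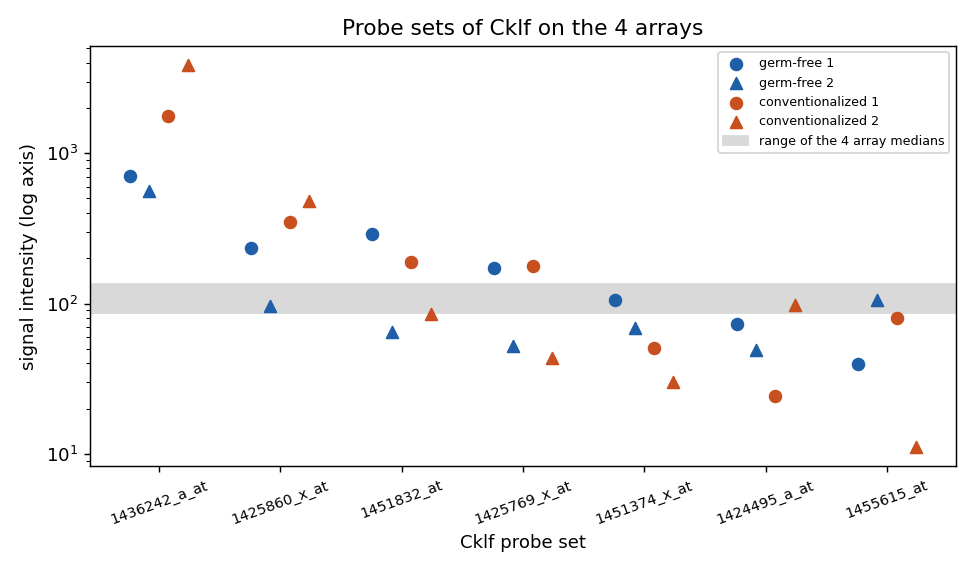
Signal intensity (log axis) of the 7 probe sets annotated to Cklf, in order of mean signal, on each array. Colours, symbols and the grey band of array medians are as in the plot of all 9 genes. At 1436242_a_at and 1425860_x_at both orange symbols lie above both blue ones, while the others overlap or, at 1451374_x_at, lie the other way.

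Cklf is followed on chromosome 8 by Cmtm2a and Cmtm1, members of the same family, and the gene table lists the name Cklf also as an old name of Cmtm2a, so an older probe annotation may not separate them. The Cklf start region is shown as that of the called gene, with GGGCGG, the GC box, in capitals (RefSeq, GRCm38.p6, plus strand, chr8:104250611-104250910).
Cklf: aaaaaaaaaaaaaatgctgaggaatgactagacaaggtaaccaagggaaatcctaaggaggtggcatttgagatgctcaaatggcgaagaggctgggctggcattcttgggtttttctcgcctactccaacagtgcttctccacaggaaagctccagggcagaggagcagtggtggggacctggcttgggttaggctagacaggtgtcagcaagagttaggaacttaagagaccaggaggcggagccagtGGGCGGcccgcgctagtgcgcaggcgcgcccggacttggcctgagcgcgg
It holds 12 CpG dinucleotides, beside a median of 7 over all windows, and 35.7% of all windows hold a GC box on either strand. Neither TATAAA nor TTTATG nor an NF-kB motif occurs in it.

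None of the CMTM relatives of Cklf was called. Cmtm6, which stabilizes the checkpoint ligand PD-L1 at the cell surface, read 4712 and 5687 against 4133 and 3047 (log2 difference -0.54 ± 0.47). Cmtm4 differed by -0.73 ± 0.44 and Cmtm5 by 0.38 ± 0.48. Those were the 3 of 9 that passed the filter, and none had an unadjusted p under 0.05 (limma). Cmtm2a read 71.4 and 7.80 against 70.0 and 97.4, under the array median on all 4 arrays. The genes closest to Cklf in pattern over the 4 arrays, by Euclidean distance of centred log2 values, were Mesp2 and Eef1a2 (distance 0.12 each) and Skor1 (0.22). With so few arrays this is a loose measure: 349 of 12121 genes had a Pearson correlation with Cklf above 0.95.

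**Figure D4:**
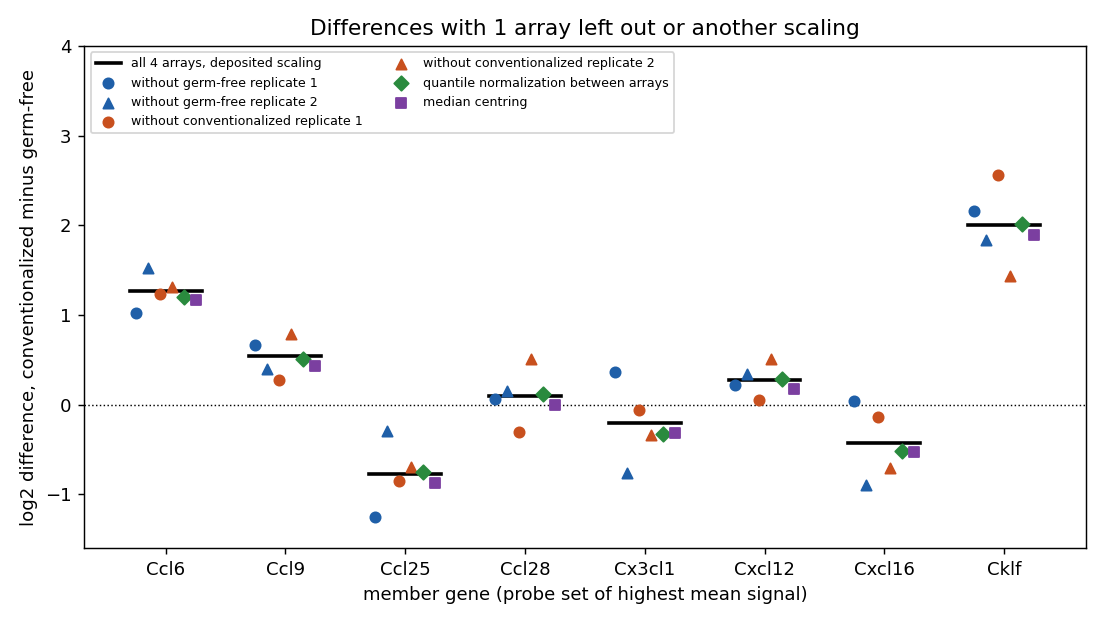
Log2 difference of each tested first probe set (black bar, all 4 arrays with the deposited scaling) beside its value with 1 array left out or with another scaling. Ccl6, Ccl9, Cxcl12 and Cklf stay above 0 and Ccl25 below 0 in all of those shown, whereas Ccl28, Cx3cl1 and Cxcl16 have symbols on both sides of 0 or at it.

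Receptors for these ligands were at or near background. Of 12 on the array, Ackr2, a scavenging receptor of inflammatory CC chemokines, exceeded the array median on all 4 arrays, and Ccr1, Ccr3, Ccr10 and Ackr3 on none. The 3 brightest were Ccr6 (374 and 50.2 against 243 and 257), Ackr2 (245 and 116 against 234 and 298) and Ackr4 (86.5 and 180 against 143 and 154). Ccr9, the receptor of Ccl25, read 121 and 12.3 against 260 and 167, without overlap. Both germ-free values were under their array medians, so it passed the filter only through the conventionalized pool. For this reason no fold is given. Of the 5 probe sets of Ccr9 this was the 1 tested. Ccr9 was named after its value was seen. None of the 6 receptors tested was called, and none had an unadjusted p under 0.05. Of 11 T and innate lymphoid cell markers on the array, 3 exceeded the median on all 4 arrays (Cd8a, Itgae and Gzma) and 2 on none (Cd3d and Cd3e). Gzma, a granule protease of cytotoxic lymphocytes, read 244 and 172 against 423 and 766, Cd8a 289 and 117 against 309 and 536, and Itgae 190 and 229 against 239 and 330. In these 3, named after their values were seen, the groups did not overlap, and none was called. Il7r went the other way without overlap, at 138.5 and 192.2 against 61.2 and 94.6. Of the 6 T and innate lymphoid cell markers tested, 4 differed by more than 0 and 2 by less. Over all tested probe sets, 15.8% lay higher without overlap and 15.3% lower. The summed signal of the 11 was 1621 and 1083 against 1673 and 2364.

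Other chemokines were mostly near background as well. Of 27 on the array, 5 exceeded the array median on all 4 arrays and 10 were tested, 5 with a difference above 0 and 5 below. The 3 brightest were Cxcl1, a neutrophil chemokine, with 451 and 266 against 157 and 480 (-0.29 ± 0.52), Ccl5, a product of T cells, at 312 and 338 against 484 and 324 (0.27 ± 0.50), and Pf4, the platelet chemokine, at 461 and 296 against 225 and 170 (-0.82 ± 0.55). Of the 33 genes tested in the lists of receptors, other chemokines, cleavage and display, CMTM relatives and NF-kB response, limma called 0, and 3 had an unadjusted p under 0.05, beside 5.12% of all probe sets. Those 3 were Ccl22 (39.4 and 21.6 against 152 and 421), Ccl24 (47.9 and 62.5 against 190 and 401) and Cxcl14 (372 and 314 against 131 and 59.8), named after their values were seen. Ccl22 draws T cells, Ccl24 draws eosinophils, and Cxcl14 is an epithelial chemokine. Ccl22 and Ccl24 were under the array median on both germ-free arrays and passed the filter only through the group where they were high, so they are no support for a difference in the count. No fold is given for either gene.

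**Figure D5:**
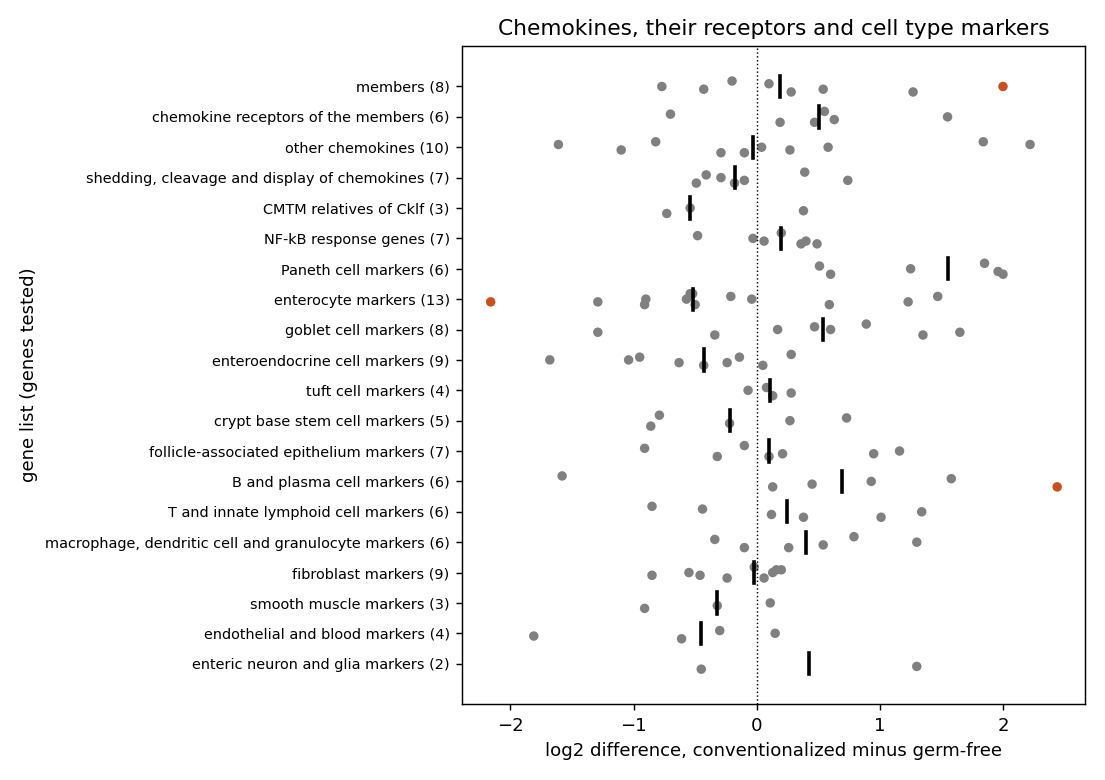
Log2 difference (conventionalized minus germ-free) of each tested gene at its first probe set, by gene list, with the number tested in brackets. Black bars are list medians and orange points are called genes, namely Cklf, Apoc3 and Igha. The chemokine median of 0.19 lies among those of the other lists, from -0.54 for the CMTM relatives of Cklf to 1.55 for the Paneth cell markers.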

How the data were processed

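Paneth cells were cut by laser from frozen intestine, RNA of 3 mice was pooled per group, and 2 aliquots per pool were amplified (Arcturus RiboAmp HS) and hybridized, per the labels' protocols. Deposited values were signal intensities, 1 for each probe set of an array, scaled by the authors to a mean of 250 after trimming 2% from each end. The software behind it is not given in the sources used here. Fluidics stations were read per the file headers. Symbols came from the 2016 platform annotation.

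Intensities were taken as log2(intensity + 32) and the groups were fitted by limma 3.58.1 under R 4.3.3 (eBayes with variance trend). The fit was also run on simulated data whose noise followed the variance trend alone. That run therefore could not test whether single probe sets vary beyond the trend. Probe sets with a mean signal at or below the median of 113.7, and 64 controls, were left out. Background was to be the 95th percentile of sensory receptor probe sets if at least 100 existed. There were 80, so the planned substitute, each array's median, was used. Every chemokine probe set was named; list genes were the called ones, otherwise the 3 brightest. Members and lists were chosen with earlier results of these data known. Alternatives changed the pseudocount (8, 128), filter, scaling, variance prior and replicate block, and left out each array.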

Additional observations from a re-analysis of the deposited data

How the results depend on the processing

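Cklf 1436242_a_at kept its direction in all 13 alternatives and its call in 7. The count of chemokine probe sets called fell from 1 to 0 with quantile normalization, with median centring, without a variance trend and with the prior degrees of freedom fixed at 4, and ran from 0 to 1 with 1 array left out. The count over all probe sets, 75 as reported, was 33 with quantile normalization, 20 with median centring (which moved the median of all tested by -0.10), 0 without the trend (977 with an unadjusted limma p under 0.05) and 0 with the fixed prior (464), and ran from 41 to 213 with 1 array left out. The replicate numbers of the labels name aliquots only. With them as a replicate block 30 probe sets were called, Cklf among them, and the duplicate differences of the groups correlated at -0.131 over probe sets. Chemokine probe sets above background on all 4 arrays numbered 7 at the 95th and 5 at the 99th percentile of the sensory receptor probe sets.

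Directions that reversed belonged to probe sets that were never called. Ccl25 1458277_at was -0.04 with quantile normalization and -0.08 with median centring, and Cxcl16 1449195_s_at was -0.01 with both. With 1 array left out, Ccl25 1458277_at ran from -0.56 to 0.61, Ccl28 1450218_at from -0.35 to 0.64, Ccl28 1455577_at from -0.30 to 0.51, Cx3cl1 1415803_at from -0.76 to 0.36, Cxcl12 1417574_at from -0.78 to 0.06, Cxcl16 1418718_at from -0.90 to 0.04, Cxcl16 1449195_s_at from -0.30 to 0.49 and Cklf 1451832_at from -1.0 to 0.74. The causes were not tested. Signals near the array median have wide duplicate error, so small differences of Cx3cl1, Cxcl16 and the dim probe sets are not resolved by these arrays.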
